A study of Arabidopsis thaliana with 20 samples.

Results

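A small set of transcripts was more abundant in ribosome-bound RNA than in total RNA of the Arabidopsis thaliana root tip, whichever of 4 promoters drove the ribosome tag and whether the seedlings had been kept in air or in hypoxia. Its members were chosen on the values themselves. A probe set was taken when the lowest group mean among the p35S, pSCR, pSHR and pWOL polysomal samples exceeded the total RNA mean by at least 0.7 log2 (1.62-fold) in air and again in hypoxia, and when the mean hypoxia change over the 4 lines was below 0.8 log2 in size. Of 22746 probe sets other than the array's controls, 36 met the rule. The lowest of the 8 differences of a polysomal group mean from the total RNA mean of its treatment is called the margin below. Of the 36, 18 carry exactly 1 gene in the platform annotation, 1 carries several and 17 carry none.

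All samples came from 7-day-old Col-0 seedlings that express His6FLAG-RPL18B, a tagged protein of the large ribosomal subunit, held for 2 h in air (control) or in argon (hypoxia) before the last 1 cm of the root was cut. The promoters were p35S (broadly active), pSCR (endodermis, per the labels), and pSHR and pWOL (vascular tissue, per the labels). Each of 5 RNA populations (total RNA and 4 tagged polysomal populations) was hybridised in each treatment to 2 arrays, 20 arrays in 10 groups. Total RNA was taken only from the p35S:His6FLAG-RPL18B lysates, so for pSCR:His6FLAG-RPL18B, pSHR:His6FLAG-RPL18B and pWOL:His6FLAG-RPL18B a comparison with total RNA also compares different transgenic lines and, by the promoters, different cells. In such bulk samples, fewer cells of a type and less RNA per cell cannot be told apart. The labels do not say that the 2 arrays of a group came from separate cultures, and the p-values below therefore reflect array-to-array spread that may be technical.

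Ribosome immunopurification pulls tagged ribosomes out of a lysate with antibody beads and recovers the messenger RNAs they carry. Total RNA also holds transcripts that are in the nucleus, that wait untranslated in the cytoplasm, or that come from cells without the tag. Array values are relative within a sample, so ribosome loading, cell of origin and a shift of other transcripts cannot be told apart in the excess over total RNA. Messengers of plastid genes are translated on organelle ribosomes, which do not contain the tagged cytosolic protein.

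The 20 arrays had medians between 6.41 and 6.55 log2, and arrays of a group correlated at 0.965 to 0.984. On 19 arrays the control probe set for 25S ribosomal RNA lay between 12.7 and 14.3, and on pSCR hypoxia replicate 2 it lay at 10.2. The GAPDH 3 prime minus 5 prime difference, a sign of transcript length after amplification, was smallest in p35S (3.68 ± 0.39 log2, SD, n = 4 arrays). The means of the other populations lay between 4.37 (pSCR) and 4.57 (pWOL).

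Excess over total RNA in every tagged line was uncommon. Over all 22746 probe sets the median margin was -0.34 log2, and the requirement of 0.7 in both treatments was met by 46, which is 0.202%. The limit on the hypoxia change removed 10 of these. Among the removed probe sets AT2G38370 had a margin of 0.86 and a mean polysomal hypoxia change of 2.66, TRM15 had 0.87 and 1.19, and AT1G13880 lay closest to the limit with a margin of 1.12 and a change of -0.81. Among probe sets with 1 gene, those just inside the margin of 0.7 were AT2G27980 (0.707), AT2G31820 (0.709) and AT3G29185 (0.710), and just outside were AT4G02720 (0.692), AT4G39720 (0.681) and AT4G13550 (0.674).

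**Figure D1:**
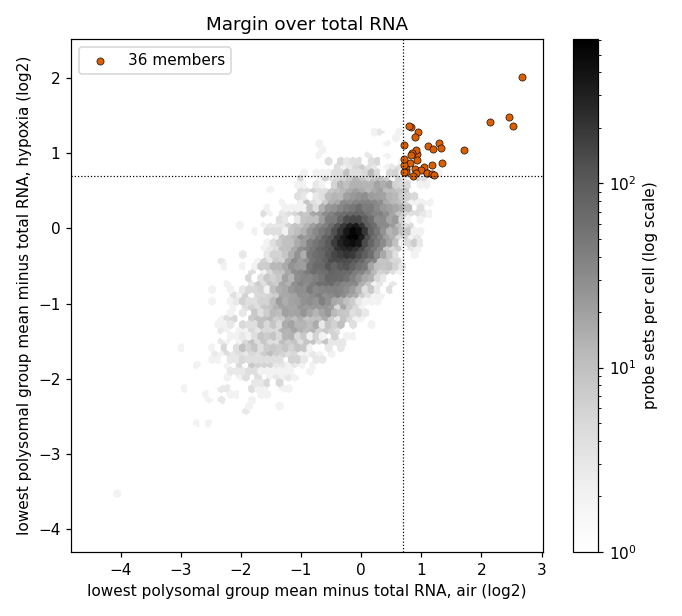
Margin of every probe set in air (horizontal axis, log2) against hypoxia (vertical axis, log2), with the number of probe sets in grey on a log scale and the 36 members as orange points; dotted lines mark 0.7. Most probe sets lie near or below 0, and the members fill the upper right corner.

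These values chose the members and are given as a description, without a test. The mean polysomal excess over total RNA, averaged over both treatments, ran from 0.92 to 3.91 log2 with a median of 1.36 (2.57-fold). The median over all probe sets was -0.01 in air and 0.00 in hypoxia. In 32 of the 36 all 8 polysomal arrays lay above both total RNA arrays in each treatment, which 1.13% of all probe sets showed. In 25 of them all 16 polysomal arrays lay above all 4 total RNA arrays, against 0.523% of all probe sets. The median total RNA signal of the members was 7.76 log2, and that of all probe sets 6.47. Only 9 of them had a margin of at least 1, and 6 of the 36 were retained whichever of the 20 arrays was left out. These 6 were AT2G43800, AT5G35200, AT1G20390, AT5G46780 and the probe sets 245845_at and 250060_at, which have no listed gene.

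**Figure D2:**
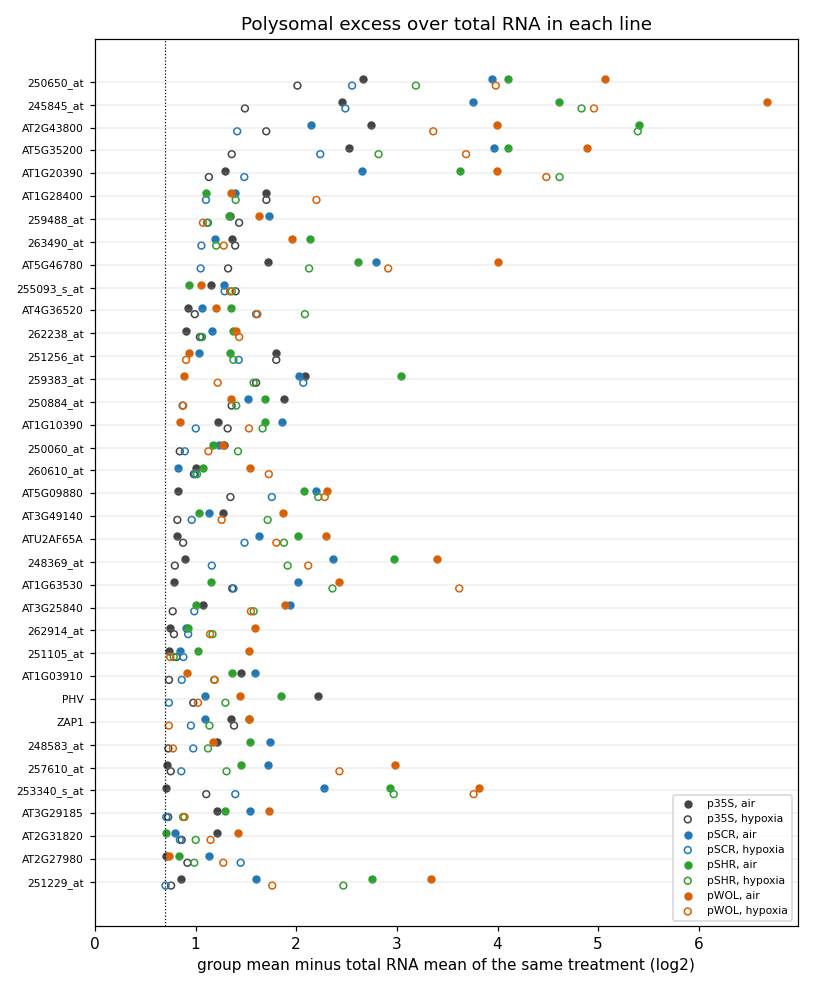
Difference of each polysomal group mean from the total RNA mean of the same treatment (log2) for the 36 members, with filled points for air, open points for hypoxia and a colour for each line; the dotted line marks 0.7. The upper rows spread widely between lines, with p35S mostly at the left and pWOL or pSHR at the right.

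AT2G43800 had the largest margin of the members with 1 gene, 1.41 log2. It encodes a formin, a protein that nucleates actin filaments and sits at the plasma membrane. In total RNA it read 7.08 and 7.10 in air and 7.38 and 7.26 in hypoxia. The 8 polysomal arrays in air had a lowest value of 9.05, a median of 10.32 and a highest of 13.02. In hypoxia they had 8.42, 9.77 and 13.10. Every polysomal array was thus above every total RNA array, and the mean excess was 3.27 log2 (9.64-fold). The pSHR arrays were the highest, with 11.96 and 13.02 in air and 12.33 and 13.10 in hypoxia, and the pSCR arrays among the lowest, with 9.43 and 9.05, and 8.42 and 9.05.

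AT5G35200 followed with a margin of 1.36. Its product belongs to the ANTH domain family of clathrin adaptors, which act in endocytosis. Total RNA gave 9.78 and 10.09 in air and 10.54 and 10.83 in hypoxia. Polysomal arrays in air ran from 12.26 through a median of 13.92 to 14.88, and in hypoxia from 11.97 through 12.92 to 14.59. No polysomal array overlapped total RNA, and the mean excess was 3.20 log2 (9.18-fold). The value of 14.88, in a pWOL array in air, is the highest of all deposited values of probe sets other than the array's controls.

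AT1G20390, listed as a pseudogene in the TAIR10.1 gene table, had a margin of 1.13. It read 6.19 and 5.86 in total RNA in air and 5.70 and 5.55 in hypoxia. The polysomal arrays ran from 7.31 through 9.15 to 10.58 in air and from 6.48 through 8.67 to 10.79 in hypoxia. Its mean excess was 2.91 log2 (7.52-fold), with pSHR and pWOL the highest lines in both treatments.

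AT5G46780, whose product carries the VQ motif found in partners of WRKY transcription factors, had a margin of 1.05 and a mean excess of 2.32 log2 (4.98-fold). Total RNA gave 8.65 and 8.07 in air and 9.63 and 9.31 in hypoxia, and the polysomal arrays ran from 9.85 through 11.15 to 12.61 and from 10.37 through 11.10 to 12.45. The groups did not overlap in either treatment. AT1G28400, for which no role is given here, read in total RNA 11.09 and 10.76 in air and 10.25 and 10.03 in hypoxia. Its polysomal arrays ran from 11.76 through 12.35 to 12.80 and from 10.75 through 11.77 to 12.85, with a margin of 1.102. The lowest polysomal array, in pSCR hypoxia, lay below the total RNA arrays of air but above those of hypoxia.

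The largest margins of all belonged to 2 probe sets with no listed gene. Probe set 250650_at had a margin of 2.01 and a mean excess of 3.44 log2 (10.9-fold), and 245845_at had 1.49 and 3.91 log2 (15.0-fold). The mean hypoxia change of 250650_at, -0.796, lies just inside the limit of the rule. In total RNA 245845_at read 6.45 and 5.84 in air and 7.18 and 6.38 in hypoxia, and in polysomal RNA from 8.29 to 13.17 and from 8.21 to 12.48.

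Several members encode parts of the pre-messenger RNA splicing machinery or proteins known to act with it. Each of these members left the set when some single array was left out. ATU2AF65A is the large subunit of U2AF, which recognises the 3 prime splice site. Its total RNA arrays read 8.22 and 8.79 in air and 8.68 and 9.69 in hypoxia, and its polysomal arrays ran from 9.28 through 10.36 to 11.04 and from 9.85 through 10.70 to 11.49. The polysomal arrays were above total RNA in each treatment, with a margin of 0.82 and a mean excess of 1.60 log2 (3.03-fold). AT5G09880, an RNA-binding protein related to the splicing factor RBM39 of animals, read 8.56 and 8.44 in total RNA in air and 8.37 and 8.62 in hypoxia. Polysomal values were 9.09 to 11.07 with a median of 10.51 in air and 9.14 to 11.45 with a median of 10.46 in hypoxia, without overlap. Its mean excess was 1.88 log2 (3.67-fold).

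AT3G25840 encodes a kinase of the PRP4 type, which phosphorylates splicing factors. Total RNA gave 7.39 and 7.27 in air and 7.72 and 7.79 in hypoxia against polysomal ranges of 8.20 to 9.59 and 8.29 to 9.60, and the mean excess was 1.35 log2 (2.55-fold). AT1G03910, the plant CACTIN, which associates with the spliceosome, had a margin of 0.74 and a mean excess of 1.16 log2 (2.24-fold). One of its pWOL arrays in air read 8.47, close to the total RNA arrays of hypoxia at 8.46 and 8.49. This grouping was made after the members were seen and no enrichment was tested. A list of 14 probe sets, by gene names that mark splicing factors or Sm-like proteins, was also drawn up after the members were seen. In it 2 were members, ATU2AF65A and AT1G03910, the latter added by its synonym CACTIN. This is therefore not a share from an independent search. The median margin of the 14 was -0.56, and the other 12 had margins from -1.67 to -0.22. Among these 12, ATU2AF35A and U2AF35B, the small subunits that pair with ATU2AF65A, had margins of -0.39 and -0.80.

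Regulators of transcription were represented by PHV and ZAP1. Each left the set when some single array was left out. PHV is a class III homeodomain leucine zipper factor of vascular and organ patterning. It read 7.96 and 7.94 in total RNA in air and 7.97 and 8.16 in hypoxia, against polysomal ranges of 9.00 to 10.29 and 8.69 to 9.61, so all 16 polysomal arrays were higher. Its margin was 0.74. ZAP1, a WRKY transcription factor, read 7.47 and 6.63, and 7.12 and 7.06, against 7.69 to 8.73 and 7.75 to 8.74, with a margin of 0.73.

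The remaining named members had margins between 0.71 and 0.92. AT4G36520, related to the clathrin uncoating co-chaperone auxilin, had a mean excess of 1.35 log2, and AT1G10390, a nucleoporin of the NUP98 type, had 1.39. One pWOL array of AT1G10390 in air, at 6.43, lay below a total RNA array at 6.48. AT3G49140 had 1.26 and AT1G63530, for which no role is given here, had 1.89. AT3G29185, needed for assembly of the chloroplast ATP synthase, had 1.12, the ankyrin repeat protein AT2G31820 had 1.00 and AT2G27980 had 1.01.

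**Figure D3:**
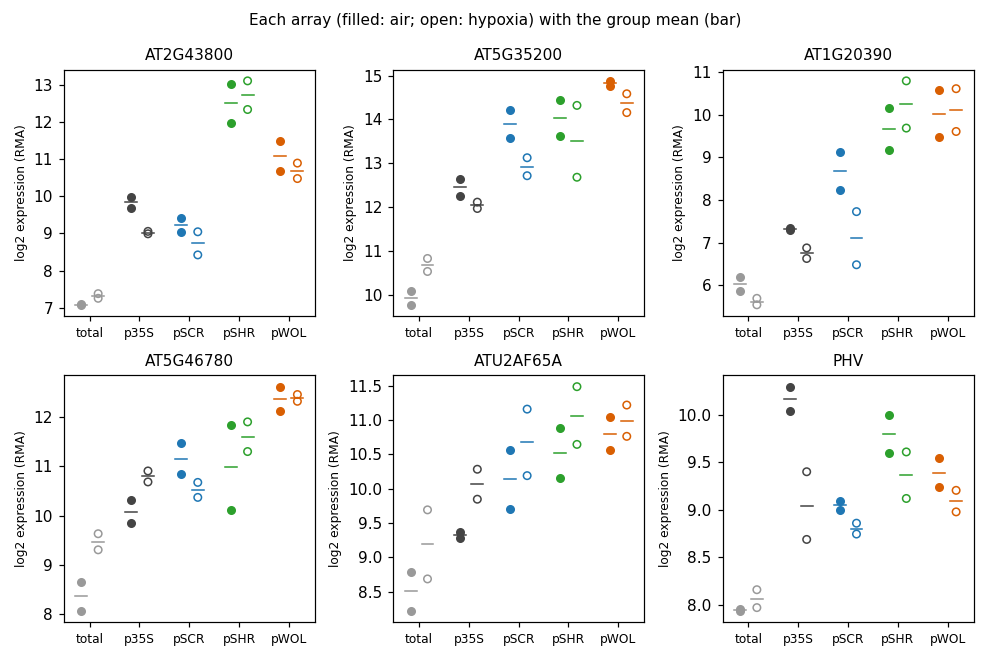
Log2 expression of 6 members on each of the 20 arrays, with filled points for air, open points for hypoxia and a bar for the mean of 2 arrays; vertical axes differ between panels and do not start at 0. Within each treatment the total RNA mean is lowest in every panel, and the order of the tagged lines differs between genes, with p35S highest for PHV in air and pSHR highest for AT2G43800.

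What else the members share could be examined only in part. No member's gene had a further single-gene probe set, so no second measurement of the same transcript was at hand. Probe sets that can match several transcripts (suffix _s_at) made up 2 of the 36 and 4.11% of all tested. No listed gene was found for 47.2% of the members and for 38.4% of all tested probe sets. The nearest pair of named members in the gene order of the genome, AT4G36520 and ATU2AF65A (AT4G36690), lay 19 genes apart, so no named members were adjacent. Of 13 gene classes searched by words in gene names, 3 had no named probe set (ribosomal proteins, translation factors and mitochondrially encoded genes). In the other classes 1 probe set was a member, ZAP1 among 40 named transcription factors. There was none among 9 named genes of RNA binding and processing (median margin -0.31, highest 0.39), 72 secretory and cell wall genes (median margin -0.64), 32 of ubiquitin and the proteasome (-0.24), 19 of the cytoskeleton (-0.37) or 18 of transport (-0.84). The search reads only names, so it did not place PHV, the formin AT2G43800 or ATU2AF65A in the classes of their known roles. Of 69 plastid-encoded probe sets none was a member, their median margin was -0.40 and their highest 0.04. Over all 22746 probe sets tested, 36 were members and the median margin was -0.34. At that share, classes of these sizes would mostly hold no member, so nothing is read from the absences.

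Cell type markers gave a further description of the fractions. Of 33 markers listed, 10 had a probe set with 1 gene, and SCR, SHR and WOL were not analysed here by name. The endodermal receptor kinase gene GSO1 averaged 10.42 log2 in pSCR, against 8.63 in p35S, 9.65 in pSHR, 9.41 in pWOL and 9.33 in total RNA. JKD, another endodermal and cortical regulator, was highest in pWOL at 9.08 and read 8.32 in pSCR. The summed level of the 2 root hair markers, EXPA7 and EXPA18, ran from 8.55 to 11.17 log2 in total RNA. It ran from 7.10 to 8.68 in p35S, 7.45 to 9.68 in pSCR, 7.23 to 10.40 in pSHR and 7.49 to 9.91 in pWOL. The summed level of the 3 stele markers, PHV among them, was 8.62 to 9.06 in total RNA. It was 9.71 to 10.77 in p35S, 9.25 to 9.62 in pSCR, 9.83 to 10.37 in pSHR and 9.54 to 9.91 in pWOL. PHV is a member, so the rule built its excess over total RNA into this sum. LHW averaged 7.19 log2 in total RNA and 8.43, 7.59, 8.13 and 7.53 in p35S, pSCR, pSHR and pWOL. OPS averaged 5.12 in total RNA and 5.85, 5.49, 5.77 and 5.34 in these lines. The part of these markers' cells in the excess of the members over total RNA was not tested.

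The rule sets a floor over total RNA under every tagged line and does not set the differences between lines. Those differences were tested as means over air and hypoxia (4 against 4 arrays). The same polysomal arrays chose the members, so these tests are not independent of the choice. In 20 members p35S held the lowest difference from total RNA. The lines did not carry all members equally. The joint limma test of the 4 lines called 15 of the 36 (41.7%) at an adjusted p below 0.05, against 22.5% of all probe sets. The strongest was AT2G43800 (adjusted p = 3.32e-05), followed by AT1G20390 (2.52e-04) and AT5G35200 (0.00104). Shares over all probe sets, here and below, include dim probe sets, while the members were brighter (median total RNA signal 7.76 against 6.47 log2). With the dimmest 25% left out, the joint test called 17 members, and 5446 probe sets in place of 5115 although fewer were tested. The background share was thus higher among brighter probe sets. The same filter gave 4313 calls in place of 4230 for pWOL and 1939 in place of 1803 for pSHR against p35S. It gave 3527 in place of 3453 for pSCR against p35S and 1916 in place of 1622 for pSCR against the vascular lines. The shares of calls over all probe sets printed for these tests are therefore also lower than those among brighter probe sets. The range between the highest and lowest line mean had a median of 0.70 log2 over the members and 0.44 over all probe sets. It exceeded 1 log2 in 14 members and stayed below 0.5 in 12. The line means ran in the order p35S, pSCR, pSHR, pWOL in 15 members (41.7%) and in 7.27% of all probe sets. The p35S mean was the lowest of the 4 in 21 members and the pWOL mean the highest in 20, against 27.6% and 26.5% of all probe sets.

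Against p35S, pWOL polysomes held more of many members. Limma called 16 of the 36, against 18.6% of all probe sets. Of these 15 were higher, against 9.25% of all probe sets, and 1 lower, against 9.35%. All 4 pWOL arrays lay above all 4 p35S arrays in 17 members, which 7.74% of all probe sets showed. The median difference over the members was 0.45 log2, and -0.02 over all probe sets. AT1G20390 was higher by 3.02 ± 0.37 log2 (model SE; adjusted p = 1.83e-04), and its 4 pWOL arrays read between 9.47 and 10.61 against 6.63 to 7.34 in p35S. AT5G35200 was higher by 2.35 ± 0.30 (2.35e-04), AT1G63530 by 1.95 ± 0.37 (0.00298) and AT5G46780 by 1.94 ± 0.31 (9.99e-04). AT2G43800 was higher by 1.45 ± 0.26 (0.00185).

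Of the 4 splicing genes, a group made after the members were seen, 3 were called in the same comparison and AT1G03910 was not. AT5G09880 was higher in pWOL than in p35S by 1.21 ± 0.35 log2 (adjusted p = 0.0275), ATU2AF65A by 1.20 ± 0.31 (0.0171) and AT3G25840 by 0.80 ± 0.18 (0.00907), while AT1G03910 differed by -0.04 ± 0.21 (0.928). Of the 16 calls in either direction, 13 held under all alternatives run. ATU2AF65A was not called without p35S control replicate 1, p35S hypoxia replicate 1, pWOL control replicate 1 or pWOL hypoxia replicate 1, with adjusted p up to 0.0699. AT5G09880 was not called without p35S control replicate 1, p35S hypoxia replicate 1 or any 1 of the 4 pWOL arrays, with adjusted p up to 0.110. The third, 260610_at (0.64 ± 0.20, adjusted p = 0.0400), held without pWOL control replicate 1 but neither without any other of the 8 arrays, with adjusted p up to 0.162, nor with trended robust moderation (0.0572). The 1 lower probe set was 251256_at (-0.88 ± 0.18, adjusted p = 0.00446). Both probe sets have no listed gene and were chosen for mention after their values were seen.

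Limma called 8 of the 36 between pSHR and p35S, against 7.93% of all probe sets. All 8 were higher in pSHR, against 4.08% of all probe sets, and 0 were lower, against 3.84%. At an unadjusted p below 0.05, 14 members (38.9%) differed in either direction, against 21.9% of all probe sets. All 4 pSHR arrays were above all 4 p35S arrays in 9 members, and in 4.13% of all probe sets. AT2G43800 was higher by 3.17 ± 0.26 log2 (9.03-fold, adjusted p = 6.73e-05), AT1G20390 by 2.91 ± 0.37 (6.64e-04), AT5G35200 by 1.52 ± 0.30 (0.00843) and ATU2AF65A by 1.101 ± 0.31 (0.0481). The 2 pSHR arrays of a treatment differed over the members, with replicate 2 above replicate 1 in 30 members in air and in 25 in hypoxia, against 52.6% and 53.1% of all probe sets. The count of members called was 7 to 12 with 1 array left out, and 3 from the 8 compared arrays alone, where AT2G43800 and AT1G20390 remained called. ATU2AF65A held without pSHR control replicate 1 or pSHR hypoxia replicate 1 and not without any other of the 8 arrays, with adjusted p up to 0.154. It was also not called after quantile normalization (adjusted p = 0.0597) or from the 8 compared arrays alone (0.073).

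Between pSCR and p35S limma called 3 of the 36, against 15.2% of all probe sets. It called 1 higher in pSCR, against 6.76% of all probe sets, and 2 lower, against 8.42%, and all 4 pSCR arrays lay above all 4 p35S arrays in 1 member, against 5.64%. The members' share of calls, 8.33%, was below that background, but this order rests on single arrays. Without p35S hypoxia replicate 2 it was 13.9% against 12.5% of all probe sets, and without pSCR control replicate 2 it was 13.9% against 11.8%. The 2 pSCR arrays of air differed over the members, with replicate 2 above replicate 1 in 8 of 36 (median difference -0.53 log2) against 50.9% of all probe sets. AT5G35200 was higher by 1.16 ± 0.30 log2 (adjusted p = 0.0197). PHV differed by -0.68 ± 0.17 (adjusted p = 0.0155), with pSCR arrays at 8.75 to 9.09 and p35S arrays at 8.69 to 10.29, so the groups overlapped. The third was 251256_at (-0.57 ± 0.18, adjusted p = 0.0499), named after its value was seen. The count was 0 without p35S control replicate 1, 1 without p35S hypoxia replicate 1 or pSCR control replicate 1, and 5 without p35S hypoxia replicate 2 or pSCR control replicate 2. Without pSCR hypoxia replicate 2, the array with the low 25S reading, AT5G35200 differed by 1.06 (adjusted p = 0.0636).

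Endodermal and vascular polysomes were also set against each other. Limma called 6 of the 36, against 7.13% of all probe sets. All 6 were lower in pSCR than in the mean of pSHR and pWOL, against 4.29% of all probe sets, and 0 were higher, against 2.84%. Higher calls were 39.9% of all calls, and 50.4% with arrays centred on their medians. AT2G43800 differed by -2.76 ± 0.22 log2 (adjusted p = 1.27e-04), AT1G20390 by -2.11 ± 0.32 (0.00244) and AT5G46780 by -0.99 ± 0.27 (0.0414). The other 3 had no listed gene, and 1 of these was 245845_at (-2.15 ± 0.44, adjusted p = 0.0120). The count was 3 without pSCR hypoxia replicate 1 and 12 without pSHR hypoxia replicate 1. AT2G43800 and AT1G20390 were called in all 12 settings that left out 1 array, and AT5G46780 in 3 of them.

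The vascular lines differed from each other in 2 members, against 1.47% of all probe sets. There was 1 in each direction, against 0.558% of all probe sets higher in pSHR and 0.91% lower. AT2G43800 was higher in pSHR than in pWOL by 1.72 ± 0.26 log2 (adjusted p = 0.0152), with pSHR arrays at 11.96 to 13.10 and pWOL arrays at 10.48 to 11.49. Probe set 257610_at, with no listed gene and named after its value was seen, differed by -1.33 ± 0.26 (0.0325). From the 8 compared arrays alone 0 were called. AT2G43800 was not called without pWOL hypoxia replicate 1 (adjusted p = 0.0640). The count was 0 without that array, 1 without pSHR control replicate 1, pSHR hypoxia replicate 1, pWOL control replicate 2 or pWOL hypoxia replicate 2, and 6 without pSHR hypoxia replicate 2.

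**Figure D4:**
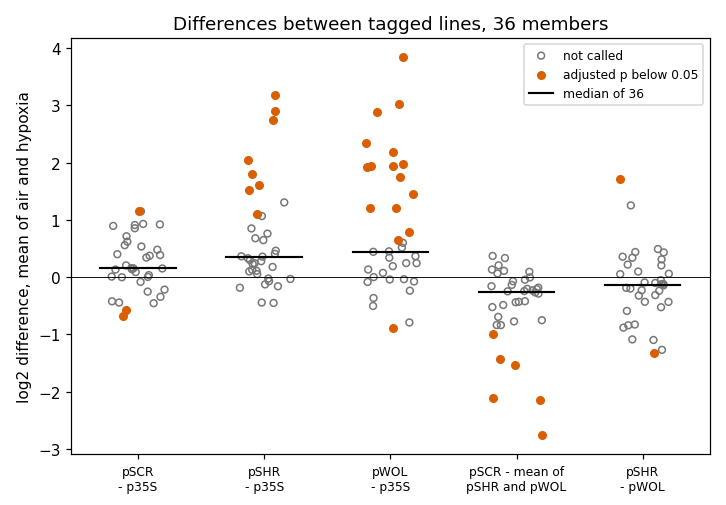
Log2 differences between tagged lines, averaged over air and hypoxia, for the 36 members in 5 comparisons, with orange points for adjusted p below 0.05, open points for the others and a bar at the median. Against p35S the called members lie above 0 in pSHR and, with 1 exception, in pWOL; pSCR lies below the vascular lines for its 6 called members.

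Some other measures followed the order of the lines and others did not. The mean GAPDH 3 prime minus 5 prime difference was 3.68 log2 in p35S, 4.37 in pSCR, 4.54 in pSHR and 4.57 in pWOL. This is the same order of lines as in 15 members, though the last 3 means lay close together (SD 0.51, 0.15 and 0.33). The summed level of the 2 cortex markers had medians of 7.48 log2 in p35S (7.15 to 8.17), 9.12 in pSCR (8.56 to 9.49), 9.26 in pSHR (8.69 to 9.62) and 10.17 in pWOL (9.50 to 10.86), the same order of lines as in 15 members. That sum is carried by AT1G09750, whose line means were 7.30, 8.96, 9.12 and 10.13 in this order, while those of AT1G62500 were 4.99, 5.17, 5.10 and 4.95, lowest in pWOL. The stele markers ran against the order, with summed medians of 10.23 in p35S, 9.59 in pSCR, 10.13 in pSHR and 9.69 in pWOL, and PHV, LHW and OPS were each highest in p35S. The summed level of the 2 endodermal markers had its lowest median in p35S too (8.94, 8.73 to 9.29). Its highest median was in pSCR (10.81, 9.63 to 11.65). It was 9.80 to 10.28 in pSHR and 9.83 to 10.64 in pWOL, so the lowest pSCR array lay below all arrays of both. GSO1 was highest in pSCR, while JKD was highest in pWOL (9.08, against 8.32 in pSCR). The part of RNA quality and of these cell types in the line differences was not tested.

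Low oxygen changed the members little, which the rule required for the mean of the tagged lines. That mean change ran from -0.80 to 0.64 log2, with a median of 0.05, and was above 0 in 20 members and below 0 in 16. By line, the median was 0.08 in p35S, -0.25 in pSCR, 0.22 in pSHR and -0.06 in pWOL, against medians from -0.02 to -0.00498 over all probe sets. The largest falls of a single line among named members were -1.57 for AT1G20390 in pSCR and -1.12 for PHV in p35S, and the largest rises were 1.26 and 1.25 for AT1G63530 in pSHR and pWOL. Whether the lines differed in their hypoxia change was tested jointly. The floor in both treatments and the limit on the mean change also restrict the change of each line. The shares of members are therefore a description from which nothing is read. Limma called 0 of the 36 and 0% of all probe sets, and 2 members (5.56%) had an unadjusted p below 0.05, against 12.8% of all probe sets. These were AT3G25840 (adjusted p = 0.239), which changed by 1.00 in pSHR and -0.52 in pSCR, and AT1G10390 (0.327), which changed by 0.99 in pWOL and -0.55 in pSCR.

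The total RNA means of air and hypoxia are the baselines of the rule, so their difference is not independent of the choice of members, and the following values are a description from which nothing is read. Limma called 0 of the 36 (2 against 2 arrays) and 2.92% of all probe sets (2.04% higher and 0.884% lower). An unadjusted p below 0.05 was found for 2 members (5.56%) and for 12.7% of all probe sets. The 2 were AT5G46780, at 1.11 ± 0.44 log2, and 248583_at, at 0.64 ± 0.25. The total RNA change was above 0 in 27 members (75%) and in 45.5% of all probe sets, with a median of 0.22 against -0.03. AT1G28400 had the most negative value, -0.78 ± 0.38. The polysomal excess over total RNA had a median of 1.49 log2 in air and 1.34 in hypoxia. It was larger in air in 27 members (75%), against 49.3% of all probe sets, a description that uses the values of the rule. For AT5G35200 it was 3.87 in air and 2.53 in hypoxia, for AT5G46780 2.78 and 1.85, and for PHV 1.65 and 1.01. AT1G63530 ran the other way with 1.60 and 2.18, and AT4G36520 with 1.14 and 1.57.

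**Figure D5:**
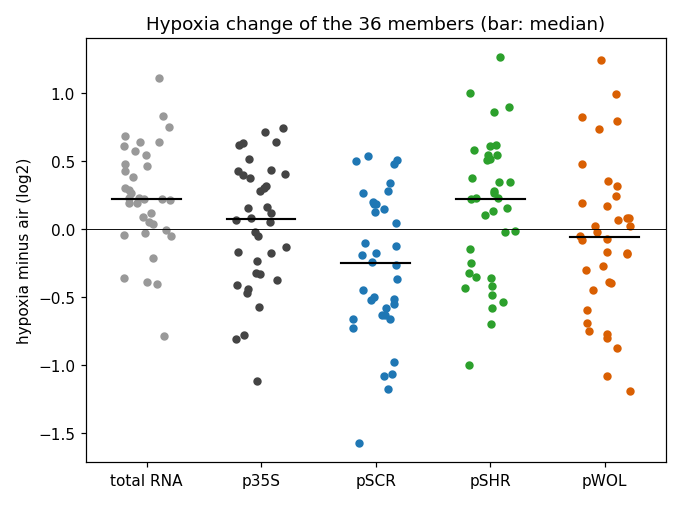
Hypoxia minus air (log2, difference of 2-array means) of the 36 members in total RNA and in each tagged line, with a bar at the median. Total RNA lies above 0 for 27 members, and pSCR has the lowest median, -0.25.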

How the data were processed

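Each array has 1 deposited column of log2 values, 1 per probe set of an Affymetrix array, made by the authors with RMA and the Bioconductor package affy, per the submitters' processing notes. Their versions, the chip definition and the genome build are not stated there, so no coordinates are printed. Per the labels' protocols 400 pg of RNA went through 2 rounds of amplification, which can shorten products and change levels unevenly, and RMA compresses low values. No scaling was added. The 64 control probe sets were left out. Genes were named from the platform annotation, and all 18 single-gene members matched the TAIR10.1 gene table. Sequences of the members were not analysed here.

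Differences were tested with limma 3.58.1 in R 4.3.3 on 10 group means over 20 arrays (10 residual and 3.30 prior degrees of freedom), with Benjamini-Hochberg adjustment over 22746 probe sets in each of 8 tests and a threshold of 0.05. The calling was tested on simulated data. The number of arrays limits the precision. Named were all single-gene members by margin, the probe sets next to the threshold, called members of each test and the 2 largest margins without a gene. Members, lists and tests were chosen with earlier results of these data known. Alternatives were a replicate block, the compared arrays alone, the dimmest 25% left out, median centring, quantile normalization, trended robust moderation, other thresholds of the rule and each array left out.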

Additional observations from a re-analysis of the deposited data

How the results depend on the processing

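Membership depends on the settings of the rule. The 36 became 112 at a threshold of 0.5 log2, 9 at 1 log2 and 694 with p35S alone against total RNA, of which 34 were among the 36. They were 27 with arrays centred on their medians and 26 after quantile normalization, all among the 36, and 26 to 53 with 1 array left out. With 1 array left out, members called were 0 to 5 (main 3) for pSCR and 7 to 12 (main 8) for pSHR against p35S, 13 to 16 (main 16) for pWOL, 3 to 12 (main 6) for pSCR against the vascular lines and 0 to 6 (main 2) for pSHR against pWOL. They were 11 to 17 (main 15) for the joint test of lines and 0 in all settings for both hypoxia tests. From the compared arrays alone pSHR against p35S gave 3 and pSHR against pWOL 0, where fewer arrays estimate the spread. Over all probe sets these counts were 544 in place of 1803 and 2 in place of 334, and 951 in place of 1622 for pSCR against the vascular lines. Leaving out 1 array gave 731 to 2755 there, 1055 to 1887 for pSHR against p35S, 2241 to 2874 in place of 3453 for pSCR against p35S and 2696 to 3555 in place of 4230 for pWOL against p35S. No direction of a called member was reversed. With the replicate number as a block, members called stayed at 3, 8, 16, 6, 2, 15, 0 and 0 in the order of tests above. To see whether the numbers pair samples, the difference of replicate 1 minus replicate 2 was taken in each group. Correlations of these differences between groups ran from -0.33 to 0.29 over 45 pairs of groups. Only 11 were above 0.1, among them air with hypoxia in pSHR (0.29) and in total RNA (0.25), so the numbers were not taken to pair all samples. Total RNA and p35S in air had -0.33 and their numbers may be crossed, but no test here sets one against the other. With arrays left out, the vascular comparison gave 36 to 1063 calls over all probe sets and total RNA hypoxia 309 to 443 in place of 665. The joint hypoxia test gave 0 to 7, 1 from the compared arrays and 14 with trended robust moderation. The causes were not tested.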
